A study of Mus musculus with 6 samples.

Results

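The glutathione S-transferase (GST) and UDP-glycosyltransferase (UGT) genes of the mouse liver were examined in animals with a CREB-H knockout allele. These received the active form of CREB-H, or green fluorescent protein, from a virus. Members were the genes with a symbol of the alpha, kappa, mu, omega, pi or theta class of GST (Gsta, Gstk, Gstm, Gsto, Gstp, Gstt), of the microsomal GSTs (Mgst) or of the Ugt1a, Ugt2a, Ugt2b and Ugt3a families. Each had to have a probe set, the group of probes summarised into 1 signal, that the platform annotation gives to that gene alone. This left 31 of the 22180 named genes on the array, with 1 probe set each: 18 cytosolic or kappa class GSTs, 3 microsomal GSTs and 10 UGTs. A further 13 symbols of these families, 8 of them Ugt1a genes, stand only on probe sets shared by several genes and were not named.

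Liver RNA came from 6 mice, and all carried the CREB-H knockout allele Creb3l3tm1.1Sad, so that by label the control animals are knockouts too. An adeno-associated virus that targets the liver was given into the peritoneum. It carried CREB-H-ΔTC, the active form of the factor, in 3 mice (AAV-CREB-H-ΔTC, here the CREB-H group) and green fluorescent protein in the other 3 (AAV-GFP, here the GFP group). Mice were on a normal diet, their age is labelled as 8 weeks, and livers were taken 2 weeks after injection; the sources used here do not name the viral promoter. The samples are labelled as biological replicates, and each gave 1 array with log2 signals.

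GSTs join glutathione, the main small thiol of the cell, to reactive electrophiles, and UGTs join a sugar, in most members glucuronic acid, to drugs, steroids, bile acids and bilirubin. Both make a compound more soluble for export into bile or blood, and the hepatocyte is rich in both. Their genes stand in clusters of close copies. Regulators known to act on many of them are NRF2 (gene Nfe2l2), which responds to electrophiles, and the receptors AhR, CAR (Nr1i3) and PXR (Nr1i2), which respond to foreign compounds.

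The supplied gene, Creb3l3, read 6.55, 5.93 and 6.40 on the GFP arrays and 6.73, 7.25 and 7.58 on the CREB-H arrays. The groups did not overlap (log2 difference 0.89, SE 0.25; exact two-sided permutation p = 0.1, the smallest that 3 against 3 arrays can give), and the adjusted p was 0.647 in limma, the linear model fitted to all probe sets. On the GFP arrays Creb3l3 lay above the array medians (4.98 to 5.01), so this probe set does not show the gene as absent. Hepatocyte markers were high on all arrays (mean log2 signal of 11 genes from 12.60 to 12.73). The 9 macrophage markers were all higher with CREB-H, by a median of 0.40, with a mean signal from 7.72 to 8.78 in the GFP group and from 8.15 to 9.01 in the CREB-H group; their part in the results below was not tested. In whole liver, fewer cells of a type and less RNA per cell cannot be told apart. Replicate 3 of both groups stood apart from the other 4 arrays. The 3 measured Y-linked genes had a mean of 7.83 and 7.67 there against 3.15 to 3.39, and no label states whether the mice were male or female. All 11 genes of a list of male-biased liver genes were above the other 4 arrays on both replicate 3 arrays, and 9 of 10 female-biased genes were below them. Median differences of the members are therefore also given for the 4 arrays without replicate 3. So are the differences of members that moved by at least 0.25 without it. Other differences are given for the 4 arrays only in part.

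Members of a cluster shared promoter sequence to very different degrees. Windows of 3 pi class and 2 Ugt2b genes are shown because genes within each of these clusters differed in how replicate 3 stood to the other arrays. RefSeq windows (assembly GRCm38.p6, from 250 bases before to 50 after an annotated start) matched 28 of the 31 members. The 250 bases before the start are printed 5′ to 3′, with each match to TGANTCA in capitals. This pattern takes any base at its centre, whereas the usual site of AP-1 factors has C or G there. All 5 lie on the minus strand: chr19:4037913-4038162 for Gstp1, chr19:4042222-4042471 for Gstp2, chr19:4059448-4059697 for Gstp3, chr5:87254789-87255038 for Ugt2b37 and chr5:87424204-87424453 for Ugt2b38.
Gstp1: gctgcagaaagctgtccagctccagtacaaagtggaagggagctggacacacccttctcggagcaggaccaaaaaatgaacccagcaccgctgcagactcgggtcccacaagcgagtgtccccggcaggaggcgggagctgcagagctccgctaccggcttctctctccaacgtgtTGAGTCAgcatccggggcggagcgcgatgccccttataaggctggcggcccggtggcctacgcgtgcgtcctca
Gstp2: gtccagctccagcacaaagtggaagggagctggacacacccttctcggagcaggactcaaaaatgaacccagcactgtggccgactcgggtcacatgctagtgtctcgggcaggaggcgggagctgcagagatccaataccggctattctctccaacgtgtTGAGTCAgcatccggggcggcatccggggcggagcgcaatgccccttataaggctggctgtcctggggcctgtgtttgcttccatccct
Gstp3: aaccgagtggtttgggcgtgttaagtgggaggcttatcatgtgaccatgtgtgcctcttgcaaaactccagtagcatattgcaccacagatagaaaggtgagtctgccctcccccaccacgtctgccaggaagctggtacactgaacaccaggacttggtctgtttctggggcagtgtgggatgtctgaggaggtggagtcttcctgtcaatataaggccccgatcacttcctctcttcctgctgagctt
Ugt2b37: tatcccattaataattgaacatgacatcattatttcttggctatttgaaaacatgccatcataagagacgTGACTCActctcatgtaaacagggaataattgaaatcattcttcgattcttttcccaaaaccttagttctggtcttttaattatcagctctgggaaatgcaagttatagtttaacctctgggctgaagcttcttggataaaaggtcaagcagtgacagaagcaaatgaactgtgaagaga
Ugt2b38: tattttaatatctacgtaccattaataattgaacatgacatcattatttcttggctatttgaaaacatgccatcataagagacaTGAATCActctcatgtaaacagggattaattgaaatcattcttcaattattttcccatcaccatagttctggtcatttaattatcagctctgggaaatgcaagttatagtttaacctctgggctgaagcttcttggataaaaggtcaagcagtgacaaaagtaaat

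Gstp1 and Gstp2 are neighbours, and 86.2% of the 282 bases that align between their windows of 300 bases were identical. Both hold TGAGTCA, at position -74 from the start of Gstp1 and -89 from that of Gstp2. Gstp3, next to Gstp2, was identical to Gstp1 at 60% of 260 aligned bases and holds no match. Ugt2b37 and Ugt2b38 were identical at 95.8% of 286 aligned bases, with TGACTCA at -180 in Ugt2b37 and TGAATCA at -166 in Ugt2b38. The match in Ugt2b38 has A at its centre and so is not the usual AP-1 site. Counting both strands, TGANTCA was found in 7 of 36 member windows (19.4%) and in 7.81% of all 32851 windows. The 7 include the near copies Gstp1 and Gstp2, and Ugt2b37 and Ugt2b38, so these windows are not independent. The core of the antioxidant response element that NRF2 binds, TGACNNNGC, was found in 3 member windows (8.33%, against 12.4% of all), those of Gsta3, Gstm7 and Mgst1. TGACGT, part of the cAMP response element of CREB-like factors, was found in 2 (5.56%, against 7.51%), those of Gstk1 and Gsto1. The AhR core GCGTG was found in 5 (against 32.4% of all) and TTCNNNGAA, a STAT site, in 3 (8.33%, against 8.3%). The first 3 motifs can overlap, and a match describes letters only.

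With p-values from limma adjusted by Benjamini-Hochberg over 41345 probe sets, 2 probe sets passed (0.00484%) and no member did. The lowest adjusted p of a member was 0.613. At an unadjusted p below 0.05 there were 2 of 31 members, Gstm2 (higher) and Ugt3a1 (lower). This was a share of 6.45%, against 6.89% of all probe sets and 5.73% of all genes. At that p 730 of 22180 genes were higher and 540 lower, whereas of 41345 probe sets 1210 were higher and 1640 lower. The groups did not overlap in 3 members (9.68%, against 12.3% of all), namely Gstm2 and Gsto1 (higher, as were 5.23% of all) and Ugt3a1 (lower, as were 7.1%). These shares were near or below the background. The mean signal of 4 members (Gsto2, Gstt4, Mgst2 and Ugt2b38) lay below the array medians. Differences were small for most members: 24 of 31 lay within 0.25 of 0 on the log2 scale. A difference of 0.5 or more was found in 3 (9.68%, against 5.3% of all probe sets and 3.08% of all genes). The median size was 0.14, against 0.11 over all genes. With CREB-H 11 members were higher and 20 lower (12 and 19 after quantile normalization, 13 and 18 after centring each array), with a median difference of -0.07 against 0.00 over all genes. On the 4 arrays without replicate 3 the counts were 19 higher and 12 lower and the median was 0.02.

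**Figure D1:**
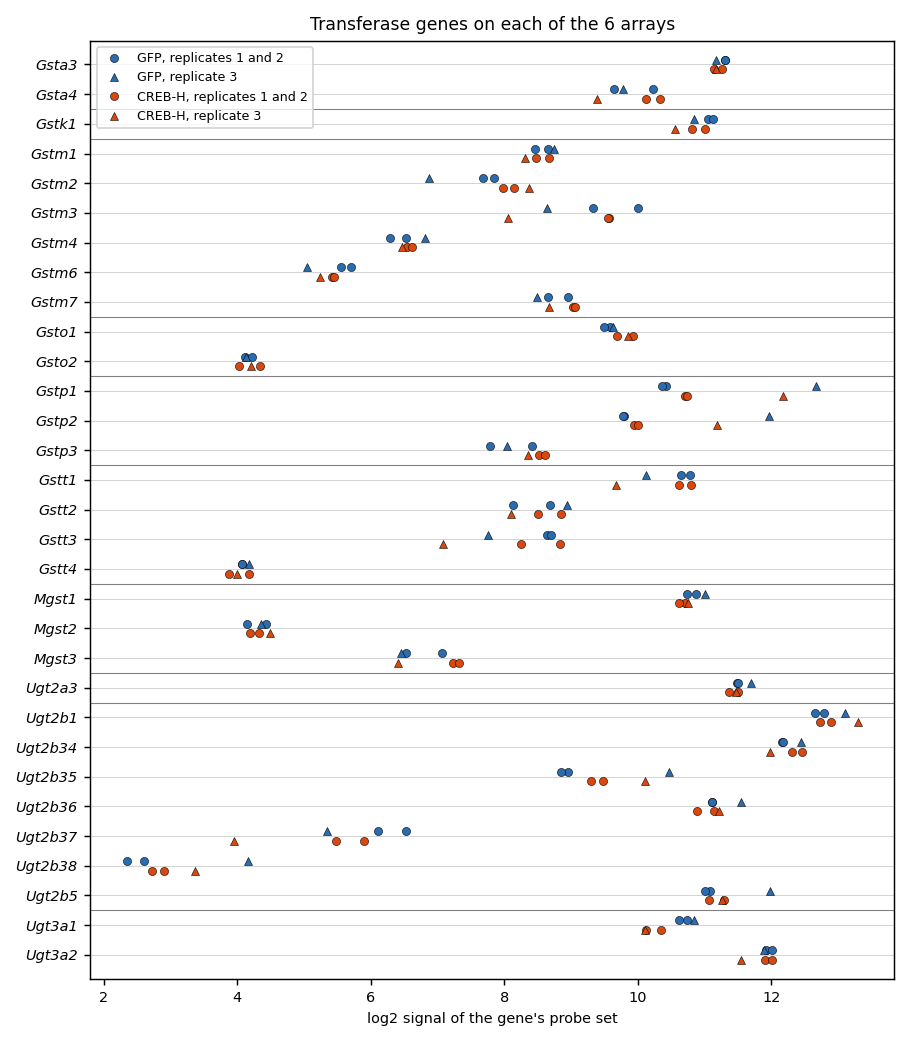
Log2 signal of the probe set of each of the 31 genes (rows, grouped by family with lines between families) on the 6 arrays. Blue points are GFP and orange points CREB-H, and triangles mark replicate 3 of each group. Levels of different genes are not comparable. In Gstp1, Gstp2, Ugt2b35 and Ugt2b38 both triangles lie above the 4 circles, and in Gstm3, Gstt1, Gstt3 and Ugt2b37 below them.

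Among the cytosolic and kappa class GSTs the median difference was -0.07 (7 of 18 higher), and 0.09 on the 4 arrays. The alpha class enzyme Gsta3, known for detoxifying the epoxide of aflatoxin, read 11.31, 11.31 and 11.17 with GFP and 11.13, 11.27 and 11.17 with CREB-H. These ranges overlapped, and the 95% interval of the log2 difference ran from -0.31 to 0.17. Gsta4, which conjugates lipid peroxidation products such as hydroxynonenal, differed by 0.07 (SE 0.27), and by 0.29 on the 4 arrays. The kappa enzyme Gstk1, found in mitochondria and peroxisomes, differed by -0.22 (SE 0.15, adjusted p = 0.844).

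The mu class cluster held the member with the lowest p of the GSTs next to members of opposite sign. Gstm2 read 7.85, 7.68 and 6.87 on the GFP arrays and 8.15, 7.99 and 8.37 on the CREB-H arrays. The CREB-H arrays were all above the GFP arrays, and GFP replicate 3 was the lowest of the 6. The log2 difference was 0.70 (SE 0.26; unadjusted p = 0.0321, adjusted p = 0.696; exact two-sided permutation p = 0.1). Without GFP replicate 3 it was 0.40, and on the 4 arrays 0.31 (SE 0.14, unadjusted p = 0.0793). Its neighbour Gstm3 read 10.01, 9.33 and 8.64 with GFP and 9.56, 9.55 and 8.06 with CREB-H, so that replicate 3 was the lowest array of each group and the groups overlapped. The difference of Gstm3 was -0.27 (SE 0.50), and it turned to 0.23 without CREB-H replicate 3 and to 0.07 without GFP replicate 1. The other 4 mu class genes lay between -0.13 (Gstm1) and 0.22 (Gstm7).

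The omega class enzyme Gsto1, which reduces mixed disulfides and dehydroascorbate, read 9.59, 9.50 and 9.63 with GFP and 9.92, 9.69 and 9.85 with CREB-H. The groups stood apart by a narrow margin, with a difference of 0.25 (SE 0.11, unadjusted p = 0.0545, adjusted p = 0.737) that was 0.26 on the 4 arrays. Its neighbour Gsto2 differed by 0.03 (SE 0.12).

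The 4 theta class genes, whose enzymes act on small halogenated compounds, all had negative differences, from -0.31 (Gstt3) to -0.09 (Gstt4). Gstt1 read 10.78, 10.64 and 10.13 with GFP and 10.62, 10.80 and 9.67 with CREB-H. Both replicate 3 arrays were below the rest, and the difference of -0.15 (SE 0.32) became 0.001 on the 4 arrays. Gstt2 read 8.69, 8.13 and 8.94 with GFP and 8.85, 8.51 and 8.11 with CREB-H. Here replicate 3 was the highest GFP array and the lowest CREB-H array, and a difference of -0.09 (SE 0.26) became 0.28 on the 4 arrays. Both theta class values thus rested on replicate 3.

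Of the microsomal GSTs, which are unrelated in fold to the cytosolic enzymes and sit in membranes, Mgst1 read 10.87, 10.74 and 11.00 with GFP and 10.71, 10.61 and 10.76 with CREB-H. These ranges met at their edge, with a difference of -0.18 (SE 0.11, adjusted p = 0.824). Mgst2 and Mgst3, relatives of leukotriene C4 synthase, differed by 0.02 (SE 0.13) and 0.30 (SE 0.28). On the 4 arrays these differences were -0.04 and 0.48.

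Among the UGTs the median difference was -0.11 (2 of 10 higher), and 0.05 on the 4 arrays (6 of 10 higher). The lowest p of any member was that of Ugt3a1, of a family whose human enzymes transfer sugars other than glucuronic acid. Ugt3a1 read 10.62, 10.74 and 10.84 on the GFP arrays and 10.12, 10.34 and 10.11 on the CREB-H arrays. All CREB-H arrays were below all GFP arrays, including within the replicate 3 pair. The log2 difference was -0.54 (SE 0.12; 95% interval from -0.82 to -0.26), a signal at 0.687 of the GFP level, with an unadjusted p of 0.00254 and an adjusted p of 0.613 (exact two-sided permutation p = 0.1). It was -0.45 on the 4 arrays and between -0.62 and -0.49 with 1 array left out. Its neighbour Ugt3a2 differed by -0.11 (SE 0.14), with readings of 11.92, 12.01 and 11.88 with GFP and 11.91, 12.02 and 11.54 with CREB-H. Apart from CREB-H replicate 3 these arrays lay close together, and the difference was 0.003 on the 4 arrays.

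The Ugt2b enzymes glucuronidate steroids, bile acids and many drugs. Ugt2b1 read 12.79, 12.66 and 13.11 with GFP and 12.89, 12.73 and 13.30 with CREB-H, with replicate 3 highest in each group and a difference of 0.12 (SE 0.19). Ugt2b37 had the largest difference of the members, -0.88 (SE 0.53, adjusted p = 0.817). Its arrays read 6.10, 6.53 and 5.35 with GFP and 5.48, 5.91 and 3.96 with CREB-H. The groups overlapped, replicate 3 was the lowest array in each, and the difference was -0.30 without CREB-H replicate 3 and -0.62 on the 4 arrays (SE 0.23, unadjusted p = 0.0427). Ugt2b5 read 11.09, 11.00 and 11.98 with GFP and 11.07, 11.29 and 11.26 with CREB-H. GFP replicate 3 alone stood out, and the difference turned from -0.15 (SE 0.26) to 0.14 on the 4 arrays. Ugt2a3, the named member of its family, differed by -0.12 (SE 0.11).

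**Figure D2:**
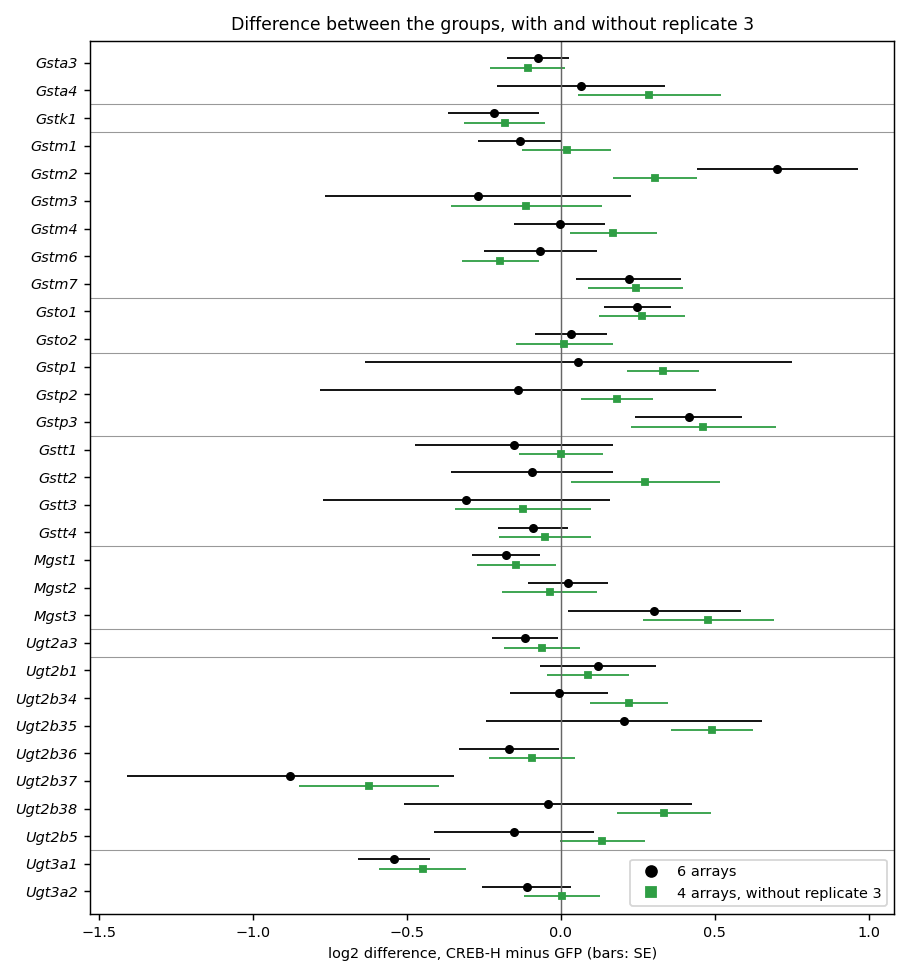
Log2 difference, CREB-H minus GFP, of each of the 31 genes with its standard error, over all 6 arrays (black circles) and over the 4 arrays without replicate 3 (green squares). Ugt3a1 stays below 0 (-0.54 and -0.45) and Gstm2 above it (0.70 and 0.31), while Gstp2, Gstt2, Ugt2b38 and Ugt2b5 lie on opposite sides of 0 in the 2 fits.

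Replicate 3 stood apart in many members. In 13 of 31 members (41.9%) both replicate 3 arrays lay outside the range of the other 4 arrays. They did so in 19% of all probe sets and 21.1% of all genes. They were above it in 6 members (10.2% of all probe sets) and below it in 7 (8.79%). This split was read from the data and is not a group of the study, so it carries no test. Gstp1 read 12.67 and 12.17 on the replicate 3 arrays of the GFP and CREB-H groups, and 10.36 to 10.74 on the other 4. Gstp2 read 11.97 and 11.18 there against 9.77 to 10.00, and a probe set listed for both genes gave 12.06 and 11.50 against 10.03 to 10.32. These copies are alike in sequence, and whether their probe sets read 1 or both of them was not tested. Gstp3 read 7.79, 8.41 and 8.04 with GFP and 8.52, 8.61 and 8.36 with CREB-H. Its replicate 3 arrays lay within the range of the other 4, the groups overlapped, and its difference was 0.42 (SE 0.18, unadjusted p = 0.0506, adjusted p = 0.726). Replicate 3 thus stood apart in Gstp1 and Gstp2 and not in Gstp3, and its relation to the promoter windows was not tested.

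The Ugt2b cluster held both directions. Ugt2b35 read 10.47 and 10.10 on the replicate 3 arrays against 8.85 to 9.48, and Ugt2b38 read 4.16 and 3.37 against 2.35 to 2.90. Ugt2b1 and Ugt2b36 were also above the other 4 arrays. Ugt2b37 was below them, at 5.35 and 3.96 against 5.48 to 6.53, while its printed window is nearly the same as that of Ugt2b38. The readings of Ugt2b38 were dim. Apart from GFP replicate 3 they lay below the lower quartile of their arrays (3.75 to 3.80). Whether the probe sets of these copies read 1 or several of them was not tested. Ugt2b5, whose window was identical to that of Ugt2b37 at 89.5% and to that of Ugt2b38 at 90% of aligned bases, did not have both replicate 3 arrays outside the range of the other 4. Among other families Gstm3, Gstm6, Gstt1, Gstt3, Mgst3 and Ugt3a2 were below the other 4 arrays. The margin was small in some: GFP replicate 3 read 11.88 in Ugt3a2 and 6.459 in Mgst3. The lowest of the other 4 arrays read 11.91 and 6.525. In Gstt3 the values were 7.76 and 7.08 against 8.25 to 8.84.

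**Figure D3:**
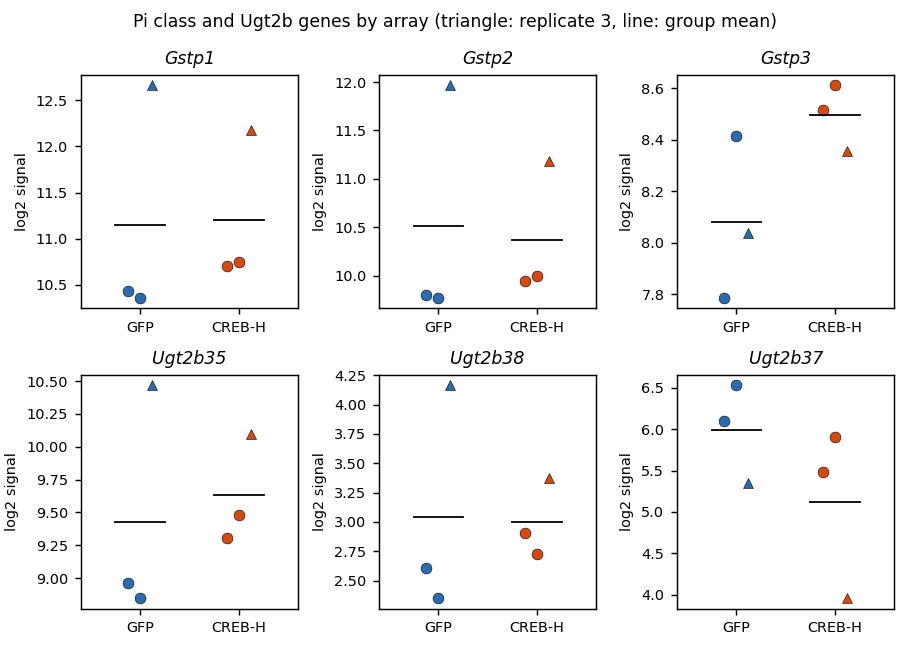
Log2 signal of 6 pi class and Ugt2b genes in the GFP and CREB-H groups; each point is an array, triangles mark replicate 3 and lines the group means. The scales of the panels differ. Both triangles are high in Gstp1, Gstp2, Ugt2b35 and Ugt2b38 and low in Ugt2b37, and in Gstp3 they lie within the range of the circles.

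The differences inside the replicate 3 pair are given beside those on the other 4 arrays, with no test between them. Between the replicate 3 arrays 23 of 31 members were lower with CREB-H, with a median of -0.34, whereas over all genes that median was 0.00. The direction was opposite to that on the other 4 arrays in 15 of 31 members and in 10533 of all 22180 genes, a similar share. Over all 6 arrays Gstp1 differed by 0.06 (SE 0.69, adjusted p = 0.995 in limma) and Ugt2b35 by 0.205 (SE 0.45, adjusted p = 0.959). Gstp2 differed there by -0.14 (SE 0.64) and Ugt2b38 by -0.04 (SE 0.47). Gstp1 was 0.33 higher with CREB-H on the 4 arrays (SE 0.12, unadjusted p = 0.0395, adjusted p = 0.608) and differed by -0.49 between the replicate 3 arrays. Ugt2b35 was 0.49 higher on the 4 arrays (SE 0.13, unadjusted p = 0.0156, adjusted p = 0.562) and differed by -0.37 in the replicate 3 pair. At an unadjusted p below 0.05, 4 of 31 members (12.9%) were counted on the 4 arrays, against 8.07% of all probe sets and 7.32% of all genes. Gstp1 and Ugt2b35 were higher (3.74% of all probe sets), Ugt2b37 and Ugt3a1 lower (4.33%). Gstm2 was 1.5 higher with CREB-H in the pair and 0.31 higher on the other 4 arrays. The pair holds 1 array of each group, so its values have no replicate. Male-biased liver genes differed in the same arrays: in 10 of 11 CREB-H replicate 3 was below GFP replicate 3, with a median log2 difference of -1.26 over the 11, and their mean signal was 9.78 against 11.15. Hsd3b5, a male-specific steroid enzyme gene, read 5.97 against 9.94. The male-biased list was lower with CREB-H outside that pair too, with a median difference of -0.61 on the other 4 arrays. Over all 6 arrays its median was -0.64, with 10 of 11 genes lower. The part of these genes' pattern in the transferase values was not tested.

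**Figure D4:**
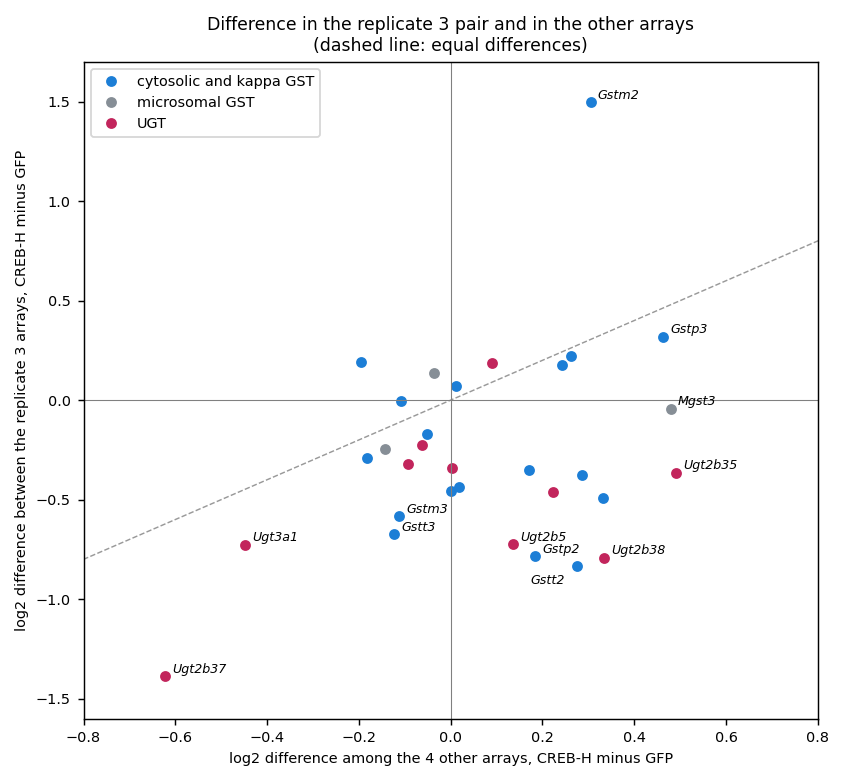
Log2 difference between the replicate 3 arrays (vertical) against that among the other 4 arrays (horizontal), CREB-H minus GFP, for the 31 genes; the dashed line marks equal differences. Most points lie below the line, and Gstm2 lies far above it (1.5 against 0.31).

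Other genes of conjugation were followed through lists drawn up from general knowledge, and none of their members passed after adjustment. Of 16 genes of glutathione synthesis and recycling 1 was higher and 1 lower at an unadjusted p below 0.05 (2.93% and 3.97% of all probe sets). Oplah, the oxoprolinase that returns glutamate to glutathione synthesis, read 9.94, 9.98 and 9.89 with GFP and 9.50, 9.44 and 8.99 with CREB-H, all below GFP (difference -0.63, SE 0.15, adjusted p = 0.623). Chac1, which degrades glutathione, read 5.58, 5.70 and 5.19 with GFP and 6.39, 5.83 and 5.80 with CREB-H, all above GFP (0.51, SE 0.21; 0.32 without CREB-H replicate 1). Ggt5, which splits glutathione outside the cell, differed by 0.36 (SE 0.20). Among 13 glutathione peroxidases, glutaredoxins and hydrolases none had an unadjusted p below 0.05, and Gpx4, which reduces lipid peroxides, differed by 0.19 (SE 0.12). Among 10 other genes of GST-like fold or membrane type Ptges, a prostaglandin E synthase related to the microsomal GSTs, was the 1 with an unadjusted p below 0.05 (-0.26, SE 0.10, adjusted p = 0.706).

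The supply of UDP-glucuronic acid held a pair of opposite sign. Ugp2, which makes UDP-glucose, read 10.92, 10.98 and 11.30 with GFP and 11.46, 11.30 and 11.49 with CREB-H. The groups touched at their edge, with a difference of 0.35 (SE 0.13, unadjusted p = 0.037). Ugdh, which oxidises UDP-glucose to UDP-glucuronic acid, read 11.07, 10.91 and 11.36 with GFP and 10.67, 10.72 and 10.58 with CREB-H, all below GFP (-0.46, SE 0.14, unadjusted p = 0.0129, adjusted p = 0.647; -0.30 on the 4 arrays). The median of the 10 measured genes of the list was 0.15. Among 13 conjugate transporters none had an unadjusted p below 0.05; the efflux pump gene Abcg2 differed by -0.55 (SE 0.24), and by -0.27 without GFP replicate 3. The uptake carrier gene Slco1a4 differed by 0.81 (SE 0.45), and by 0.15 on the 4 arrays. Of 19 other conjugating enzymes 7 were higher and 12 lower, and 1 in each direction had an unadjusted p below 0.05 (2.93% of all probe sets higher, 3.97% lower): Hnmt, the histamine methyltransferase, by 0.55 (SE 0.17), and the arylamine acetyltransferase Nat1 by -0.55 (SE 0.23).

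Genes that serve as readouts of the regulators went both ways. Nqo1, a quinone reductase under NRF2 and AhR, read 6.52, 6.34 and 6.48 with GFP and 6.92, 7.23 and 7.00 with CREB-H. The groups stood well apart, with a difference of 0.61 (SE 0.12, unadjusted p = 0.0017, adjusted p = 0.6) that was 0.65 on the 4 arrays. Cyp1a1, the main AhR target, read 4.87, 4.75 and 4.82 with GFP and 5.22, 5.32 and 5.22 with CREB-H, again without overlap (0.44, SE 0.10, adjusted p = 0.613). Aldh1a1, a retinaldehyde dehydrogenase, read 12.73, 12.72 and 12.82 with GFP and 11.99, 12.38 and 11.61 with CREB-H, all below GFP (-0.76, SE 0.20, adjusted p = 0.623). These were the 3 of 19 readout genes with an unadjusted p below 0.05, 2 higher and 1 lower (2.93% and 3.97% of all probe sets), and the list median was -0.07. Of 15 measured regulators 1, the fatty acid receptor Ppara, had an unadjusted p below 0.05 (0.63, SE 0.19, adjusted p = 0.647), against 2.93% of all probe sets in that direction. Nr1i3 differed by -0.55 (SE 0.27), and by -0.10 on the 4 arrays. Nfe2l2 differed by -0.26 (SE 0.17), and by -0.06 on the 4 arrays. Ahr and Nr1i2 differed by 0.08 (SE 0.14) and 0.01 (SE 0.30).

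**Figure D5:**
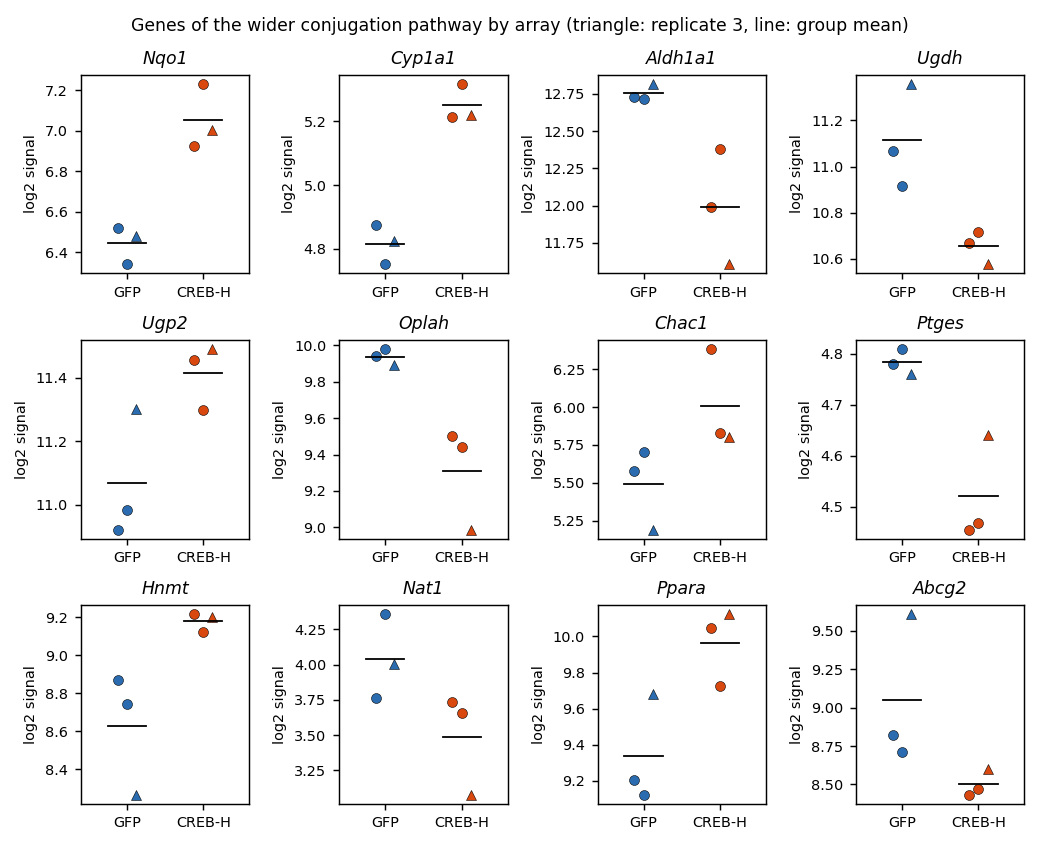
Log2 signal of 12 genes of the wider conjugation pathway in the GFP and CREB-H groups; each point is an array, triangles mark replicate 3 and lines the group means, and the scales of the panels differ. The groups are apart in Nqo1, Cyp1a1, Aldh1a1, Ugdh, Oplah, Chac1, Ptges, Hnmt, Nat1, Ppara and Abcg2, and touch in Ugp2. The gap is narrow in some, such as Nat1 and Ppara. The 12 were taken from the genes of lowest p in their lists, which favours groups that stand apart. Of all probe sets 12.3% had groups that did not overlap.

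The 8 probe sets shared by several genes of these families were not counted as members. Their differences ran from -0.13 to 0.07 with no unadjusted p below 0.2, and 2 of them list Ugt1a genes, the family that conjugates bilirubin.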

How the data were processed

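Biotin-labelled single-stranded cDNA from the total RNA of 6 livers was hybridised, 1 array per liver, per the labels' protocols. The values deposited by the authors are on a log2 scale, judged from their range (1.42 to 13.87) and the array medians (4.98 to 5.01). Per the submitters' processing notes they come from the Transcriptome Analysis Console. Its version, the summarisation and the normalization: not given in the sources used here. Detection calls and scanner files were not used, so dim probe sets have no floor. Precision is limited by the number of arrays.

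The effect of group was fitted by limma 3.58.1 (R 4.3.3; lmFit, eBayes, two-sided), with Benjamini-Hochberg adjustment over 41345 probe sets and a threshold of 0.05, and the script was tested on simulated data. GEO's platform annotation gave 1 gene symbol to 23521 probe sets, several to 1814 and none to 16010. The reference table held the Entrez ID of 23328, with no symbol changed. No member had more than 1 probe set.

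The members, lists and rules were chosen with earlier results of these data known. Named members were the one with the highest mean in each family, those with an unadjusted p below 0.05, those with a difference of at least 0.5 and those that moved by at least 0.25 without replicate 3, with Gstp1; Ugt1a1 had no probe set of its own. From each other list up to 3 genes of lowest p were named; those of the sex-biased lists are given as array levels. The other members named, to complete their families or for the replicate 3 pattern, were chosen after their values were seen. So were the regulators Nfe2l2, Ahr and Nr1i2. Promoter windows and gene order came from RefSeq (GRCm38.p6); windows were aligned with Biopython 1.88. Alternatives were quantile normalization, median centring, filters that removed the lowest 25% or 50% of probe sets by mean signal, limma-trend (robust), a replicate block, each array left out, the 4 arrays without replicate 3, a term for replicate 3, averaged probe sets, and testing 1 probe set per gene. Figures were drawn with matplotlib 3.10.9.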

Additional observations from a re-analysis of the deposited data

How the results depend on the processing

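No member passed after adjustment under any alternative (lowest adjusted p 0.423, limma). Of 18 named members 8 kept their direction under the alternatives run on them, among them Gstm2 and Ugt3a1. So did 24 of 25 other named genes, which apart from Creb3l3 were chosen for low p in their lists. Each had 15 alternatives, except 5 genes (Ugt2b38, Gpx6, Hpgds, Nat1 and Ptges) with 13 or 14, since the filters on dim probe sets removed them. Several alternatives cannot change a direction: the filters, limma-trend, the replicate block, the replicate 3 term and, for genes with 1 probe set, averaging. The count of members at an unadjusted p below 0.05 was 2. It became 4 after median centring, with limma-trend, on the 4 arrays and when probe sets of a gene were averaged. Averaging left the values of the members unchanged, as each has 1 probe set, and altered only the rest of the fit. With 1 array left out the count ran from 1 to 3. The count of all probe sets that passed was 2; it was 0 on the 4 arrays (3338 at an unadjusted p below 0.05), 1 with a term for replicate 3, and 0 to 2 with 1 array left out. Same-numbered arrays did not all deviate together (correlations 0.08, 0.13 and 0.33), so the numbers were not taken as pairs. With the replicate block 0 probe sets passed and 4 members had an unadjusted p below 0.05.

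The median difference of all members was 0.019 on the 4 arrays (-0.089 to 0.020 with 1 array left out), that of the cytosolic and kappa GSTs 0.094 (-0.071 to 0.068) and that of the UGTs 0.046 (-0.198 to 0.032). On the 4 arrays, with the share of all genes not counted, the signs turned in 10 of 31 members. Those named by the rule were Gstp2 (0.18), Gstt1 (0.001), Gstt2 (0.28), Ugt2b38 (0.33), Ugt2b5 (0.14), Ugt3a2 (0.003), and the others were Gstm1, Gstm4, Mgst2 and Ugt2b34. Among the other lists the sign of Hagh, which hydrolyses a glutathione ester, turned (0.045). With 1 array left out Gstm3 ran from -0.61 to 0.23, Gstp1 from -0.43 to 0.81, Gstp2 from -0.54 to 0.59, Gstt1 from -0.37 to 0.19, Gstt2 from -0.32 to 0.10, Ugt2b1 from -0.04 to 0.25, Ugt2b35 from -0.083 to 0.73, Ugt2b38 from -0.39 to 0.52, Ugt2b5 from -0.33 to 0.16 and Ugt3a2 from -0.21 to 0.028. The cause of these changes was not tested.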

Other observations

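Markers of other liver cell types gave small differences with no call after adjustment. Of 6 measured cholangiocyte genes 5 were higher with CREB-H (median log2 difference 0.19), with Krt19, a keratin of bile ducts, at 0.38 and Sox9, a bile duct transcription factor, at -0.36. The medians were 0.19 for 9 stellate cell genes (7 higher) and 0.17 for 8 endothelial genes (7 higher). For tissues that could be carried over, 5 pancreatic acinar genes had a median of 0.21 at a mean signal of 4.51 to 5.21, 8 kidney tubule genes a median of -0.03 at 4.65 to 4.99, and the 1 measured erythroid gene differed by 0.16. The part of these genes in the transferase values was not tested.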
